A study of Homo sapiens with 47 samples.

Results

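The data described here are the levels of 10 genes of paraxial mesoderm and somites, *MSGN1*, *TBX6*, *FOXC1*, *FOXC2*, *TCF15*, *MEOX1*, *MEOX2*, *UNCX*, *PAX1* and *PDGFRA*, out of 58051 genes listed in each library. They were chosen by name, through their Ensembl identifiers, and all 10 were found in all 47 libraries. The question is when, in which fraction and in which differentiation cultures of neuromesodermal progenitors (NMPs) carried transcripts of mesoderm.

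Bulk RNA-seq was made from H9 (WA09) cells, an established human embryonic stem cell (hESC) line, so every group shares a single genetic background. The libraries called t0 came from undifferentiated hESCs. Those called 36h came from hESCs held for that time in N2B27 without vitamin A, with CHIR-99021 (a GSK3 inhibitor that raises WNT signalling), FGF2, AGN193109 (an inverse agonist of retinoic acid receptors) and Y-27632 (a ROCK inhibitor), and are labelled NMP-like. P1 to P10 are the passages that followed in the same additives, labelled as pre-neural progenitors (PNPs) and neural crest (NC). At P5 and P8, epithelial (EPI) and mesenchymal (MES) cells were also enriched by selective detachment, which enriches and does not purify. Each differentiation, numbered r1, r2 and r3, gave 1 library per group, except that P9 has r1 and r2, which makes 35 whole-culture and 12 fraction libraries.

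In the embryo, NMPs at the tail end feed both spinal cord and paraxial mesoderm. WNT and FGF signals and the T-box factor TBXT lead to *TBX6* and *MSGN1*, transcription factors of the presomitic mesoderm (PSM), which holds neural fate back. As the PSM segments into somites it turns on *FOXC1*, *FOXC2*, *TCF15* and *MEOX1*, and somites then divide into sclerotome, which uses *PAX1* and, in the posterior part, *UNCX*, and dermomyotome. *PDGFRA*, a receptor tyrosine kinase for PDGF ligands, marks paraxial mesoderm early and is also found in neural crest and many mesenchymal cells.

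The sequences just before the start sites of *MSGN1*, *TBX6* and *FOXC1* are shown because these genes were among the first of the group to rise. They are the 250 bases upstream of the start in RefSeq on GRCh38.p14, 5′ to 3′ on the gene's own strand, with the letters of any searched motif in capitals. The *MSGN1* sequence lies at chr2:17816210-17816459 on the plus strand, the *TBX6* sequence at chr16:30091925-30092174 on the minus strand and the *FOXC1* sequence at chr6:1609665-1609914 on the plus strand.
MSGN1: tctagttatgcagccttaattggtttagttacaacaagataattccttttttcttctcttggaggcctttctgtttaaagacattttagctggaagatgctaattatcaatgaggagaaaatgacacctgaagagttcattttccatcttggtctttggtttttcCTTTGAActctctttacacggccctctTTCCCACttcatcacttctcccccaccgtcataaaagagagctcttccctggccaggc
TBX6: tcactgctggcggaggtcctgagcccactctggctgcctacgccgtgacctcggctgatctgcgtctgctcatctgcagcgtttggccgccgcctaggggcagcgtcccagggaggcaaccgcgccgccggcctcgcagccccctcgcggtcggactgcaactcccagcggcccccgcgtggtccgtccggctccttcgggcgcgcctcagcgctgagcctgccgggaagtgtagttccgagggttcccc
FOXC1: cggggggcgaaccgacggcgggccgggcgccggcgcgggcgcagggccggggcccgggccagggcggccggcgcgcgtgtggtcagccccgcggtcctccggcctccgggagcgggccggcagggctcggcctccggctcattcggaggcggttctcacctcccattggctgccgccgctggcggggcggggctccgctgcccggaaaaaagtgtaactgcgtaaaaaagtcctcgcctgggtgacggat

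Both strands were searched for TCACACCT (T-box), CTTTGAT and CTTTGAA (TCF/LEF, the WNT effectors) and GTGGGAA (RBPJ, the Notch effector). *MSGN1* held CTTTGAA from base -85 to -79 and GTGGGAA on the other strand, written TTCCCAC, from -58 to -52. The other 5 of the 6 genes with an entry (*TBX6*, *FOXC1*, *MEOX2*, *UNCX* and *PDGFRA*) held none of these letters in this window. Of 35116 promoter entries, 3.80% held CTTTGAA, 5.43% GTGGGAA, 2.26% CTTTGAT and 0.786% TCACACCT, and 11.7% held at least 1 of the 4. *MEOX1*, *TCF15*, *FOXC2* and *PAX1* had no entry.

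The libraries held between 13029491 and 64082859 expected counts, with a median of 47292229. Values below are normalized counts, which are rounded expected counts divided by a library size factor, unless TPM, a unit that also divides by transcript length, is named. Some libraries stood apart from others of their label. At 36h the defining NMP gene *TBXT* was at 3290 in r1 against 27924 in r2 and 27664 in r3, and *NANOG*, a pluripotency factor, was still at 3957 in r1 against 1942 and 86.6. At P1 *NANOG* was at 1146 in r1 against 3.72 in r2 and 0 in r3. At P10 the neural progenitor gene *SOX2* was at 12403 in r1 against 31.0 and 44.8 in r2 and r3. Calls of the 10 genes and of the lists beside them that rest on these libraries are given with and without r1. In whole cultures, fewer cells of a type and less RNA per cell cannot be told apart.

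The genes of the PSM rose early, fell again by P4 and were latest in r1. *MSGN1* (chr2:17816496-17817101) had no count at t0, and its highest level came at 36h in r3, at P1 in r2 and at P2 in r1. In r3 it read 5687 at 36h, 947 at P1 and 75.6 at P2. In r2 it read 1374, 2344 and 113 at the same time points, and in r1 7.37, 43.1 and 2384. The highest of r1 thus came when the other differentiations had fallen to 113 or below. By P4 all 3 libraries lay between 8.44 and 44.8, and from P5 to P8 no whole culture exceeded 20.8. It was higher again in some late libraries, with 21.9 in r1 and 173 in r2 at P9, and 8.36, 40.5 and 65.0 at P10.

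*TBX6* (chr16:30085793-30091887) was also latest in r1. It started from 91.4, 116 and 134 at t0 in r1, r2 and r3. At 36h it was at 263, 1758 and 10399, and at P1 at 138, 8967 and 11297. At P2 the order turned round, with 6720, 1230 and 640 in the order r1 to r3, and r1 stayed high at P3 (5285, against 200 and 485). From P6 on no whole culture exceeded 25.5, which is below every t0 library. *TBX6* therefore peaked at P2 in r1 and at P1 in r2 and r3, never earlier than *MSGN1* and once a time point later.

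**Figure D1:**
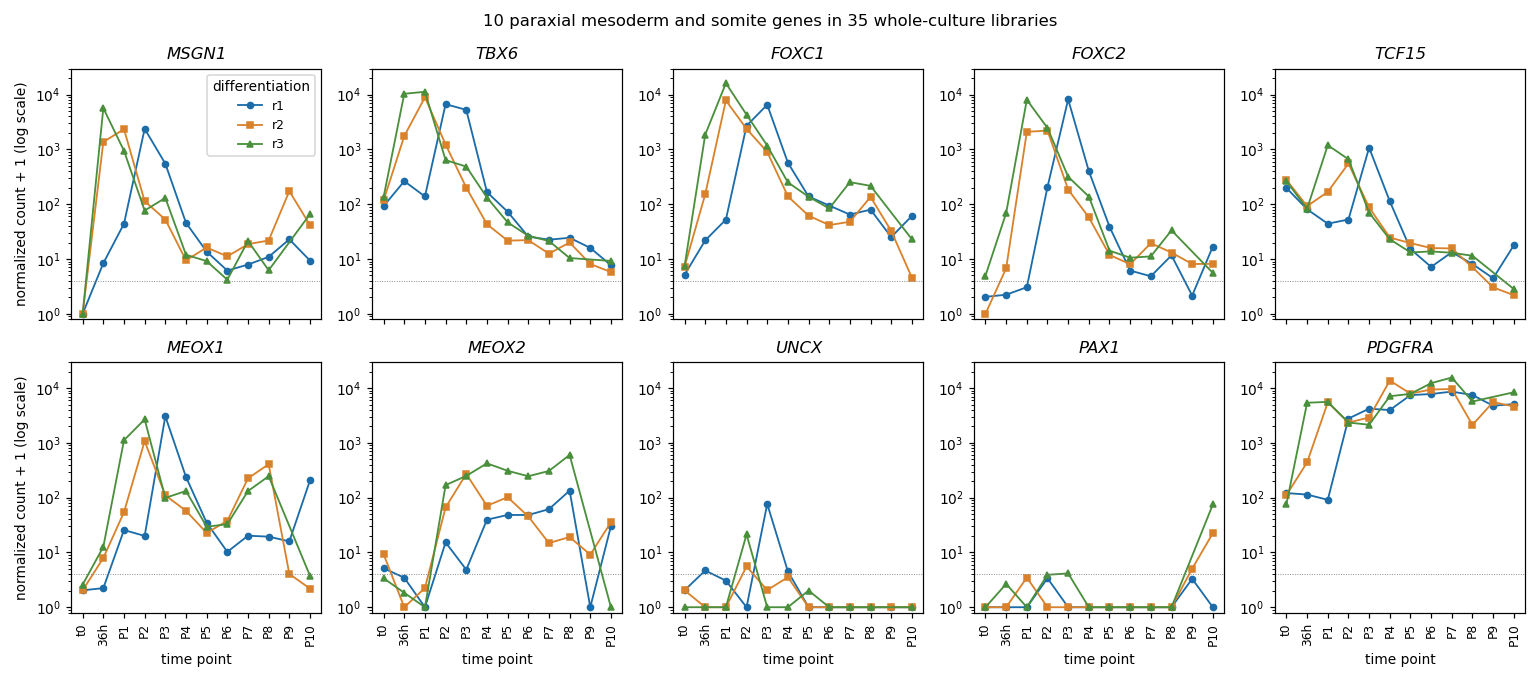
Normalized count plus 1 (log axis) of the 10 genes against time point in the 35 whole-culture libraries, one line per differentiation; the dotted line marks 3 normalized counts and r3 has no P9 point. The peaks of *MSGN1*, *TBX6*, *FOXC1*, *FOXC2*, *TCF15* and *MEOX1* lie between 36h and P3 and come latest in r1, whereas *PDGFRA* stays at 2125 or above in every library from P2 on.

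The forkhead factors *FOXC1* and *FOXC2*, which act together in somite formation, came next. *FOXC1* (chr6:1609972-1613897) was between 4.15 and 6.35 at t0 and had reached 1861 at 36h in r3, when r2 was at 151 and r1 at 20.9. At P1 it stood at 51.4, 7839 and 16238 in r1, r2 and r3, the last being the highest value of any of the 10 genes. At P3 the order was reversed, with 6556 in r1 against 901 and 1178. It was between 40.6 and 93.6 at P6 and at 78.8, 135 and 215 at P8.

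*FOXC2* (chr16:86566829-86569728) was at 2.05, 2103 and 8077 at P1, at 206, 2204 and 2465 at P2, and at 8196, 184 and 316 at P3. It was thus at the floor in r1 at P1, when r2 was at 2103 and r3 at 8077, and highest in r1 at P3, after both others had fallen. An antisense transcript, FOXC2-AS1, overlaps it and had at most 11 normalized counts in any library.

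*TCF15* (chr20:603797-610398), a bHLH factor needed for somites to become epithelial, started from 197, 277 and 263 at t0. It lay lower in all 3 differentiations at 36h, at 79.8, 91.2 and 81.6, and the groups did not overlap, although the change was not called (log2 -1.55, SE 1.00, edgeR adjusted p = 0.35). It then had a peak of 1194 at P1 in r3, of 554 at P2 in r2 and of 1077 at P3 in r1. The peak in r3 was the earliest, as for *MSGN1*, and all libraries from P5 on were at 21.9 or below.

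*MEOX1* (chr17:43640388-43661954), a homeobox factor of early somites, had its highest levels at P3 in r1 (3062) and at P2 in r2 (1079) and r3 (2687). In r3 it had already reached 1119 at P1, when r1 and r2 were at 24.7 and 53.3. It was higher again later in r2 and r3, with 224 and 131 at P7 and 407 and 246 at P8, while r1 stayed at 19.2 and 18.4. At P10 the pattern was turned round, with 206 in r1 and 1.19 and 2.74 in r2 and r3.

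In every differentiation the order was therefore *MSGN1* and *TBX6* no later than *FOXC1*, *FOXC2*, *TCF15* and *MEOX1*. With r1 the first pair peaked at P2 and the latter 4 all at P3. In r2 the pair and *FOXC1* peaked at P1 and the other 3 at P2. The r3 series ran from 36h for *MSGN1* over P1 for *TBX6*, *FOXC1*, *FOXC2* and *TCF15* to P2 for *MEOX1*. Each such peak is a single library.

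**Figure D2:**
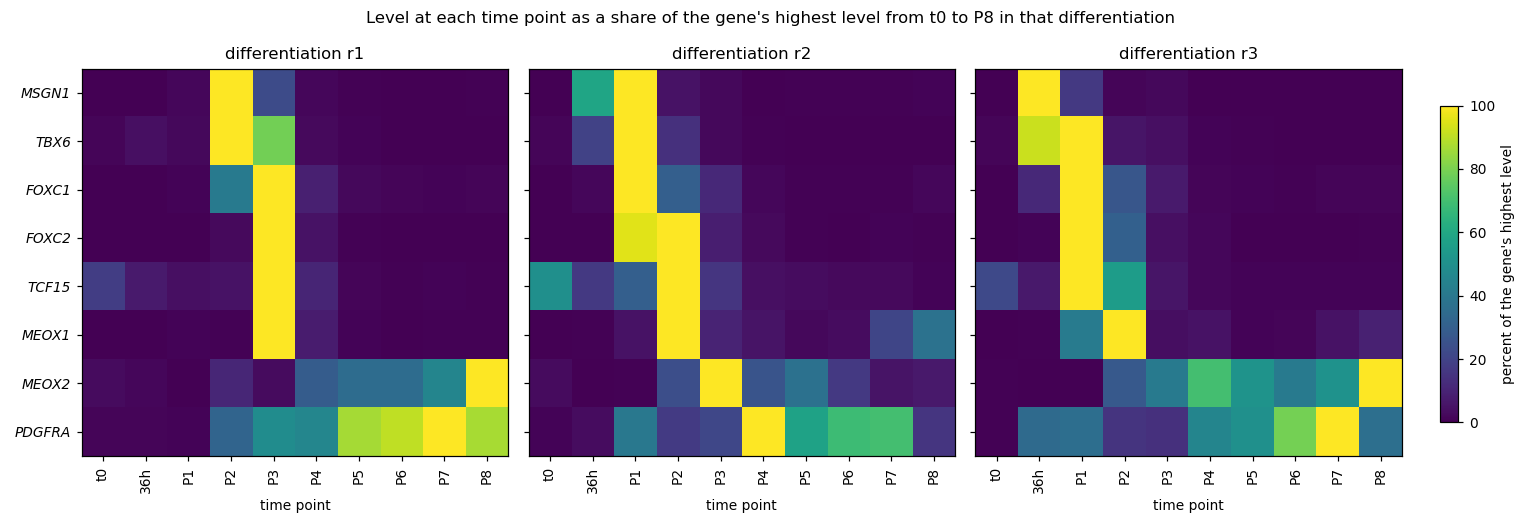
Colour gives the normalized count at each time point from t0 to P8 as a percentage of that gene's highest value in the same differentiation, for 8 genes (rows) and 3 differentiations (panels). From the first to the sixth row the cell at the gene's highest value moves from P2 to P3 in r1, from P1 to P2 in r2 and from 36h to P2 in r3; *MSGN1* in r2 was already at 1374 of 2344 at 36h.

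A wider list of 20 PSM and segmentation genes was likewise latest in r1. In r1, 11 of the 20 had their highest level at P2 and 7 at P3. In r2, 5 peaked at 36h, 10 at P1 and 3 at P2, and in r3 12 at 36h, 5 at P1 and 1 at P2. Among 13379 genes that averaged 100 or more normalized counts in whole cultures, 8.6% peaked at P2 and 4.12% at P3 in r1, 11.4% at 36h and 9.54% at P1 in r2, and 9.99% at 36h and 9.68% at P1 in r3. At P2 the share over all genes was 7.53% in r2, and in r3 it came from 1476 genes and was above the share of the list.

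The oscillating segmentation-clock repressor *HES7* peaked at 4907 at P2 in r1, at 3368 at P1 in r2 and at 5021 at 36h in r3, in step with *MSGN1* in each differentiation. *MESP2*, which sets the position of the next somite border, peaked later, at 1996 at P3 in r1, at 315 at P2 in r2 and at 1830 at P1 in r3. *RIPPLY2*, which shuts the PSM programme off in the forming somite, had its peaks in the same libraries, at 2025, 287 and 1123. Their relatives did not share these times throughout, since *MESP1* peaked at 36h in r2 and r3 and *RIPPLY1* at P2 in r3.

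*SOX2*, which NMPs share with neural progenitors and which *TBX6* opposes in the embryo, was at its lowest from t0 to P8 in the very library in which *TBX6* peaked. It read 2085 at P2 in r1, 180 at P1 in r2 and 195 at P1 in r3, against 11543, 11668 and 12586 at t0. By P4 it had returned to between 6245 and 14225. The summed TPM of the list of 10 neural progenitor genes did not follow *SOX2*, at 436, 395 and 477 in those libraries against 327, 313 and 342 at t0. With all differentiations *NKX6-1* and *CDH2* of this list were called higher at 36h than at t0 (log2 6.24 and 2.70). The sum does not show how each of its genes moved.

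Markers of other mesoderm and of endoderm were read beside this wave. The list of 15 lateral plate and intermediate mesoderm genes had a summed TPM of 2.59 to 3.07 at t0, of 11.5, 24.5 and 70.1 at 36h in r1, r2 and r3, and of 20.5 to 37.6 at P1. At P3 the sums of r1, r2 and r3 were 43.2, 530 and 578, and at P5 they lay between 390.1 and 686. The r1 sum at P3 was thus far below those of the other differentiations. Of 14 tested genes of this list only *PRRX1* (log2 6.32, edgeR adjusted p = 5.3e-04) and *BMP4* (log2 4.55, edgeR adjusted p = 1.7e-04) were called between P1 and P3, both higher. *WT1* of the list had no count in any P5 whole culture, so the sum does not stand for all its genes. The endoderm list of 9 genes rose to a summed TPM of 413 at P3 in r1, 435 at P1 in r2 and 580 at P1 in r3, from 17.6 to 20.9 at t0. Its largest contributor there was *CXCR4*, a chemokine receptor that mesoderm also expresses, at 412, 432 and 578 TPM in those libraries. The endoderm genes *SOX17* and *FOXA2* were low in them, with *SOX17* at 0 in each and *FOXA2* at 11.5, 0 and 3.95. Within the list, 4, 3 and 3 of the 9 genes had their highest level at 36h in r1, r2 and r3. Of these, 2, 3 and 1 reached 100 normalized counts. *EOMES* of this list was called higher at 36h than at t0 without r1 (log2 6.81, edgeR adjusted p = 0.0017), but not with all differentiations. The heart and endoderm factor *GATA6* was at 1.23, 908 and 3194 at 36h in r1, r2 and r3, and at 21.3 or below in all 3 at P1. The part of these cells in the levels of the 10 genes was not tested.

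*MEOX2* had its highest whole-culture levels later than the genes above, and *UNCX* was near the floor in most libraries. *MEOX2* (chr7:15611212-15686812), a homeobox factor of somites and limb muscle precursors, was at 8.29 or below in all libraries up to P1. It then read 14.3, 65.5 and 169 at P2 and 3.84, 271 and 249 at P3 in r1, r2 and r3. It stayed above the t0 level in all whole cultures from P4 to P8, with 47.4, 101 and 309 at P5 and 133, 18.2 and 602 at P8. *UNCX* (chr7:1232907-1237318), a homeobox factor of the posterior sclerotome, reached 75.8 at P3 in r1 and 20.4 at P2 in r3, and stayed at 4.55 or below in the other 45 libraries. Those are the libraries in which *MEOX1* peaked.

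*PAX1* (chr20:21705659-21718486), a paired-box factor of sclerotome, was at 4.06 or below in every library up to P9 and in every fraction. At P10 it was at 0 in r1, 21.5 in r2 and 74.1 in r3. The P10 libraries with *PAX1* are those in which *SOX2* was low, at 31.0 and 44.8. A list of 17 genes of somite derivatives held muscle factors that stayed near the floor, with *MYF5* at 3.14 or below and *MYOD1* at 6.16 or below in every whole culture. The sclerotome factor *PAX9* reached at most 78.4. Its summed TPM still rose from between 12.4 and 14.8 at t0 to between 178 and 295 at P5, and the genes that carried it, *PAX3* and *COL2A1*, are also used by neural crest, dorsal spinal cord and cartilage. *PAX3* had 3595 to 6304 normalized counts at P5 and *COL2A1* 6840 to 24476.

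*PDGFRA* (chr4:54229097-54298247) stayed at 2125 or above in every library from P2 on. With all differentiations and the block, no change of it was called in any comparison below. At t0 it had 120, 111 and 75.4 in r1, r2 and r3. It read 113, 441 and 5410 at 36h, 90.4, 5481 and 5617 at P1, and 2784, 2355 and 2354 at P2, so the 3 differentiations had come together by P2. From P4 to P10 all libraries lay between 2125 and 15611. An overlapping read-through gene on the same strand, AC058822.1, had at most 25 normalized counts in any library.

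Per length, *PDGFRA* made up 6.12% to 11.1% of the summed TPM of the 10 genes at P2 and 87.0% to 92.3% at P5. Its mean TPM was 1.60 ± 0.582 at t0, 62.7 ± 3.95 at P5 and 91.3 ± 28.5 at P7 (SD, n = 3). At their peaks *MSGN1* stood at 163, 166 and 404 TPM in r1, r2 and r3 and *TBX6* at 140, 193 and 245 TPM. *TCF15* peaked at only 28.4, 14.5 and 30.6 TPM and *MEOX2* at 2.38, 4.56 and 10.3 TPM. *FOXC1* peaked at 66.4, 76.6 and 160 TPM and *FOXC2* at 133, 35.6 and 127 TPM. The early PSM genes thus reached higher levels per length than the somite genes in each differentiation, with the smallest gap in r1, between *TBX6* and *FOXC2*.

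Markers of neural crest and mesenchyme were read beside *PDGFRA*. The neural crest list of 13 genes had a summed TPM of 152 to 177 at t0, 82.2 to 207 at P2 and 136 to 171 at P3. In r1 the sum was higher at P2 than at t0, and in r2 and r3 it was lower. It was at 204 to 381 at P5 and 261 to 1246 at P8. The neural crest factor *TFAP2A* was at 14.4 or below in every library up to P2 and at 451, 1435 and 3770 at P5. The mesenchymal list of 12 genes had 253 to 295 TPM at t0, 2187 to 4876 at P2 and 2880 to 4331 at P5. *PRRX1*, a factor of limb and craniofacial mesenchyme from the lateral plate list, was at 216, 950 and 702 at P2 and at 16250, 18682 and 24932 at P5. Their part in the *PDGFRA* level was not tested.

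Groups were tested by edgeR's quasi-likelihood method on counts, with the differentiation as a block, and calls needed an adjusted p under 1%, a change of 2-fold or more and, over the libraries compared, 100 or more normalized counts on average. Between 36h and t0, 2 of the 10 genes were called, both higher, where 2.71% of 21750 tested genes were called and 1.33% were called higher. *MSGN1* was at least 822-fold higher, against a floor of 3 counts per t0 library (edgeR adjusted p = 0.0027). This bound was 222-fold without r3 and 1286-fold without r1, and r1 had only 6 counts at 36h. For *FOXC1* the log2 change was 6.51 (SE 1.57, edgeR adjusted p = 0.0074). Both were higher at 36h in 3 of 3 differentiations.

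*TBX6* had a log2 change of 5.11 (SE 1.29, edgeR adjusted p = 0.010) and *PDGFRA* by 3.91 (SE 1.05, edgeR adjusted p = 0.015), and neither was called. Without the block *PDGFRA* was called (log2 4.30, edgeR adjusted p = 0.0081). These calls depended on which differentiation was left out. Without r1 all 4 genes were called, where 3.96% of tested genes were, with log2 changes of 5.39 for *TBX6* and 4.81 for *PDGFRA*. *TCF15* was at -1.62 without r1 (edgeR adjusted p = 0.069). Without r2 or without r3 none was, and with only the t0 and 36h libraries in the fit none was. Of the 20 PSM and segmentation genes 8 were called, all higher, among them the T-box factor *TBXT* (log2 11.26), the homeobox factors *MIXL1* (9.56) and *EVX1*, and *FGF17* (9.18). Without r1 12 were called higher and 1 lower, without r2 none and without r3 2 higher. Of 14 tested lateral plate and intermediate mesoderm genes 2 were called higher, the heart and endoderm factors *GATA6* and *GATA4* (edgeR adjusted p = 1.5e-04 and 6.0e-04), and the median log2 change was 3.58, against 3.09 for the 10 members and 0.0036 for all tested genes. Of 12 tested neural crest genes 1 was called higher, *SNAI2* (log2 4.38, edgeR adjusted p = 0.0015). Without r1 the lateral plate list had 4 called higher and the neural crest list 1 higher and 1 lower, and without r2 or without r3 neither had any. Of 12 mesenchymal genes 4 were called higher, *ZEB2*, *CDH11*, *ZEB1* and *VIM*. Of 10 neural progenitor genes 2 were called higher and of 8 epithelial genes 2 lower. From these 3 lists only *ZEB2* and *ZEB1* were called without r2 and only *ZEB2* without r3. No gene of the endoderm list was called, and its median log2 change was 3.18. The part of such cells in the 36h levels of the members was not tested.

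From 36h to P1 no member was called, where 1.19% of tested genes were, although 3 were called by DESeq2. In edgeR 4 members had an unadjusted p under 0.05, as had 5083 of 21750 tested genes. *FOXC2* had the largest change, with a log2 value of 7.08 (SE 1.71, edgeR adjusted p = 0.012), and *FOXC1* had 4.01 (SE 1.22, edgeR adjusted p = 0.042). Without r1, in which these genes were still low at P1, 4 members were called higher. Those were *FOXC2* (log2 7.09), *FOXC1* (3.98), *MEOX1* (5.75) and *TCF15* (2.90), with edgeR adjusted p of 5.4e-05, 9.1e-04, 0.0028 and 0.0057. The count over all tested genes went from 259 to 955 in the same fit.

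From P1 to P3 no member was called with all differentiations, where 1.09% of tested genes were, and DESeq2 called none. In edgeR 2 members had an unadjusted p under 0.05, as had 4583 of 21750 tested genes. *TBX6*, *MSGN1*, *FOXC1*, *FOXC2*, *TCF15* and *PDGFRA* were higher at P3 in r1 and lower in r2 and r3. *MEOX1* was higher in r1 and r2 and lower in r3. *MEOX2* was higher in 3 of 3, going from 0 to 3.84, from 1.24 to 271 and from 0 to 249, with an edgeR adjusted p of 0.013 and a mean of 87.5, under the minimum for a call. *FOXC2* went from 2.05 to 8196 in r1, from 2103 to 184 in r2 and from 8077 to 316 in r3, and its log2 fold change over all 3 was -0.11 (SE 1.55). Without r1 it was called lower, with a log2 value of -4.16 (edgeR adjusted p = 7.0e-04). So were *TBX6*, *MSGN1*, *FOXC1* and *TCF15*, with -4.98, -4.19, -3.38 and -3.02 (edgeR adjusted p of 3.4e-04, 0.0031, 0.0024 and 0.0054). Over all tested genes, leaving out r1 took the count of called genes from 238 to 820.

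**Figure D3:**
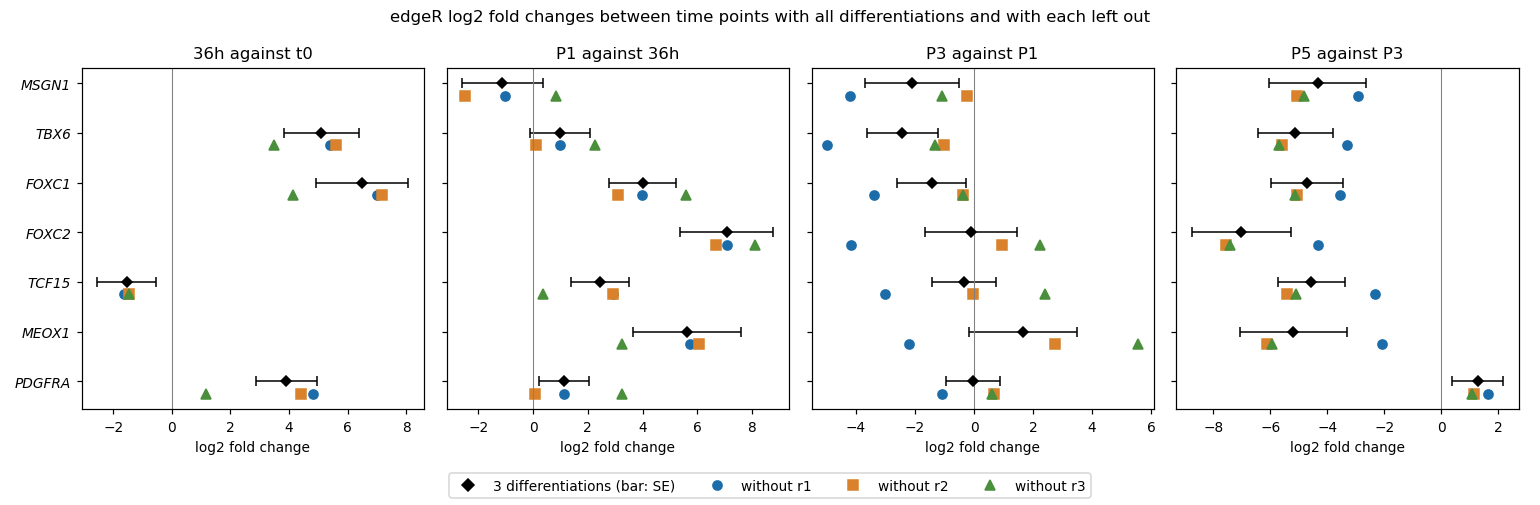
edgeR log2 fold changes of 7 genes in 4 comparisons of time points, for genes averaging 100 or more normalized counts in the libraries compared, from 3 differentiations (black, bars are SE) and with each differentiation left out (coloured). *MSGN1* is not drawn for 36h against t0, where every t0 count is 0; for P3 against P1 the points without r1 lie to the left of those with all differentiations for every gene drawn.

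By P5 the levels of this wave had fallen in all 3 differentiations, but no member was called between P3 and P5, where 0.0138% of tested genes were. Log2 changes were -7.02 for *FOXC2*, -5.20 for *MEOX1*, -5.12 for *TBX6*, -4.72 for *FOXC1*, -4.56 for *TCF15* and -4.34 for *MSGN1* (SE 1.18 to 1.87, edgeR adjusted p from 0.16 to 0.53). Each of these 6 genes was lower at P5 in 3 of 3 differentiations. At P5 *FOXC1* was still at 137, 60.9 and 136 and *MEOX1* at 34.0, 21.8 and 28.5, above every t0 library. *FOXC2* and *MSGN1* also stayed above their t0 levels, whereas *TBX6* and *TCF15* were below theirs. An unadjusted p under 0.05 was found in edgeR for 7 members and for 1545 of 21750 tested genes. DESeq2 called 4 members, *TBX6*, *TCF15*, *FOXC1* and *FOXC2*, all lower.

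From P5 to P8 no member was called, none had an unadjusted p under 0.05 and DESeq2 called none, where edgeR called 0.0092% of tested genes. *MEOX1*, at 34.0, 21.8 and 28.5 at P5, had the largest change among members with a mean of at least 100 (log2 3.12, SE 1.71, edgeR adjusted p = 0.45), with r1 going down and the others up. From P8 to the mean of P9 and P10 no member was called, where 1.25% of tested genes were, and DESeq2 called 1, *MEOX2*. In edgeR 2 members, *MEOX2* and *PAX1*, had an unadjusted p under 0.05, as had 5708 of 21750 tested genes. *PAX1* had a log2 change of 6.50 (SE 1.97, edgeR adjusted p = 0.056) at a mean of 12.7, under the minimum for a call. *MEOX2* had a log2 change of -3.80 (SE 1.17, edgeR adjusted p = 0.039), from 133, 18.2 and 602 at P8 to 0 and 8.12 at P9 and 29.3, 34.6 and 0 at P10, so r2 did not share the direction at P10. *PDGFRA* had a log2 change of 0.15 (SE 0.80). Without r1 *MEOX1* was called lower (log2 -6.94, edgeR adjusted p = 0.0011), whereas *MEOX2* was at -3.31 (edgeR adjusted p = 0.16) and *PDGFRA* at 0.79 (edgeR adjusted p = 0.47).

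In the fractions the PSM genes were low. *TBX6* was at 48.5, 16.6 and 24.6 in the P5 EPI and 55.8, 17.5 and 27.1 in the P5 MES libraries of r1, r2 and r3. *MSGN1* was at 23.4 or below in all P5 fractions and reached 85.7 in the P8 MES library of r3. *FOXC2* was at 42.3 or below and *TCF15* at 21.9 or below in all 12. *PAX1* and *UNCX* did not pass the count filter in the fractions, so 8 members were tested there.

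*MEOX2* was higher in MES than in EPI in all 3 differentiations at P5, at 155, 220 and 489 against 8.32, 43.6 and 198. The ratios were 18.6, 5.04 and 2.46 in the same order. The groups overlapped, and the log2 difference was 1.99 (SE 1.19, edgeR adjusted p = 0.34). At P8 it was 636, 22.1 and 64.3 against 43.3, 20.5 and 52.3, a log2 difference of 2.51 (SE 1.34, edgeR adjusted p = 0.49) that rested on r1. The difference of these differences was 0.53 (SE 1.70, edgeR adjusted p = 0.98).

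*PDGFRA* was high in both fractions. At P5 it read 6823, 8715 and 9142 in EPI and 5474, 8587 and 7323 in MES, a log2 difference of -0.17 (SE 0.42, edgeR adjusted p = 0.85). At P8 it read 7275, 2204 and 6399 in EPI and 8268, 3349 and 8363 in MES, a log2 difference of 0.35 (SE 0.42, edgeR adjusted p = 0.78). The groups overlapped at both passages. In the same P5 libraries *SOX2* ran from 10162 to 14796 in EPI and from 1943 to 5296 in MES, and *TFAP2A* was higher in MES in 3 of 3 differentiations. The related receptor *PDGFRB* was at 838, 2613 and 3919 in P5 EPI and at 5571, 8209 and 8680 in P5 MES, without overlap.

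**Figure D4:**
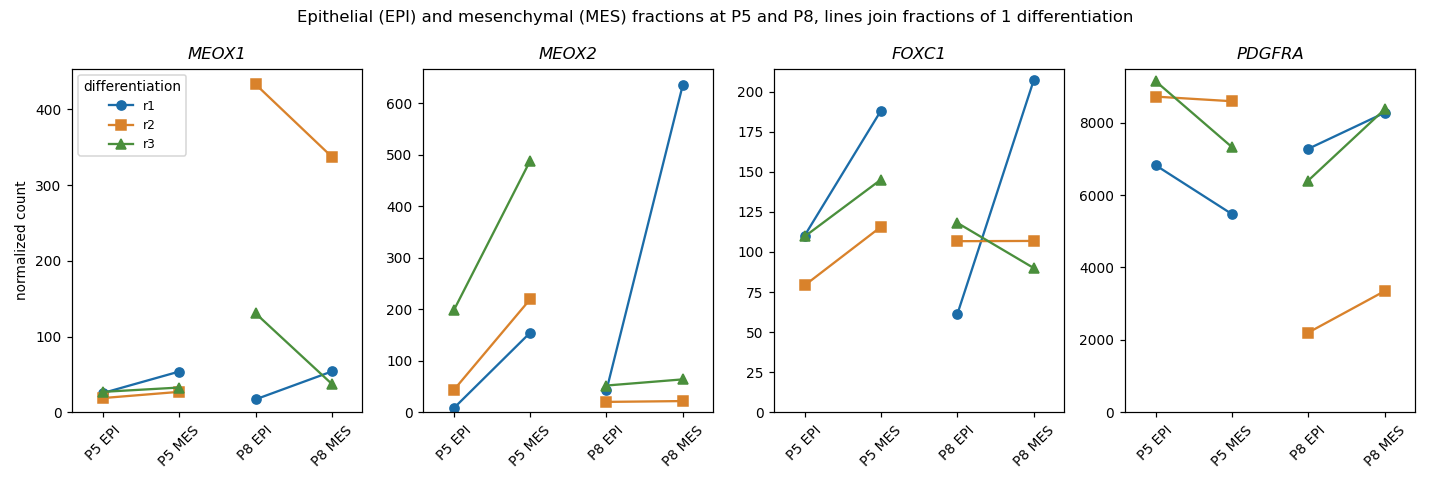
Normalized counts of *MEOX1*, *MEOX2*, *FOXC1* and *PDGFRA* in EPI and MES fractions at P5 and P8, with a line joining the fractions of each differentiation. *MEOX2* lines rise from EPI to MES, steeply at P8 only in r1, and *PDGFRA* lines fall at P5 and rise at P8 in 3 of 3 differentiations.

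*FOXC1* was at 110, 79.2 and 110 in P5 EPI and at 188, 116 and 145 in P5 MES, higher in 3 of 3 differentiations and without overlap (log2 0.59, SE 0.36, edgeR adjusted p = 0.34). At P8 the EPI and MES libraries overlapped, at 61.3, 107 and 118 and at 207, 107 and 90.0. *MEOX1* at P8 was highest in r2 in both fractions, with 17.3, 433 and 131 in EPI and 54.2, 337 and 37.5 in MES, and was higher in MES only in r1. In edgeR no member was called at P5 or at P8 or differed between them, none had an unadjusted p under 0.05 in any of these tests and DESeq2 called none, where edgeR called 0% of 18885 genes in each. Of those genes 4894 at P5 and 2261 at P8 had an unadjusted p under 0.05, and DESeq2 called 674 and 55.

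The MES cells of P5 were set against the 36h cultures, a comparison that changes passage and fraction together. In P5 EPI *TBX6* was also low, at 48.5, 16.6 and 24.6, and *PDGFRA* also high, at 6823 to 9142. *MEOX2* was at 8.32, 43.6 and 198 there. Of the 10 genes 3 were called, where 10.7% of 21995 tested genes were, 5.58% lower and 5.11% higher. *TBX6* was lower, with a log2 value of -7.03, and *MSGN1* with -7.15 (edgeR adjusted p = 3.8e-05 and 0.0015), and *MEOX2* was at least 89.5-fold higher against a floor of 3 counts per 36h library (edgeR adjusted p = 8.3e-04). The last bound was 52.4-fold without r3 and 119-fold without r1. *TBX6* read 55.8, 17.5 and 27.1 in P5 MES against 263, 1758 and 10399 at 36h, without overlap. *MSGN1* read 23.4, 6.81 and 10.6 against 7.37, 1374 and 5687, so r1 went up and the groups overlapped. Without r1 *TBX6* (log2 -7.85), *MSGN1* (-8.51) and *FOXC1* (-2.53) were called lower and *MEOX2* higher, with edgeR adjusted p of 2.9e-07, 4.1e-06, 0.0041 and 0.0019. Without r2 no member was called and without r3 only *PDGFRA* was.

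*PDGFRA* had a log2 difference of 2.16 (SE 0.85, edgeR adjusted p = 0.043), with 5474 to 8587 in P5 MES against 113, 441 and 5410 at 36h. Of the 20 PSM and segmentation genes 9 were lower and none higher, including *TBXT* (log2 -6.41) and *HES7* (-6.20). Without r1 13 were lower, without r2 3 were lower and 1 higher, and without r3 1 was lower. Of 12 tested neural crest genes 6 were higher, led by *TFAP2A* (log2 9.59), and of 12 mesenchymal genes 8 were higher, led by the matrix gene *LUM* (12.12). Without r1, r2 or r3 these counts were 6, 3 and 5 for neural crest and 9, 5 and 7 for mesenchyme. Of 14 tested somite derivative genes 3 were higher and none lower, *EN1* (log2 5.99), *PAX3* (4.32), which is also on the neural crest list, and *COL2A1* (3.07). Their median log2 change was 2.84, against 2.60 for the neural crest list. Of 14 tested lateral plate and intermediate mesoderm genes 2 were higher, *PRRX1* (7.18) and *BMP4* (6.11), and 2 lower, *GATA6* (-9.40) and *GATA4* (-8.76). Among the PDGF genes *PDGFC*, *PDGFD* and *PDGFRB* were higher (log2 2.42, 2.15 and 2.52) and the ligand *PDGFA* was lower (log2 -4.40). The same 4 were called without r1, but only *PDGFA* without r2 and *PDGFA* and *PDGFRB* without r3.

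Correlations among the members differed widely between pairs, of which only some are given here. Over the 47 libraries, which share differentiations and time points, Pearson's r of log2 CPM was 0.90 for *FOXC1* with *FOXC2*, 0.725 for *TBX6* with *MSGN1*, 0.81 for *TBX6* with *TCF15*, 0.30 for *TCF15* with *MEOX1* and -0.275 for *TBX6* with *PDGFRA*. Without the 36h, P1 and P10 libraries of r1, an alternative chosen after seeing the data, these values over 44 libraries were 0.902, 0.738, 0.816, 0.347 and -0.269. Over the 47 libraries *MEOX1* had an r of 0.732 with *FOXC2* and 0.698 with *FOXC1*, and *MSGN1* had 0.319 with *TCF15*. Across 21995 genes the nearest to *TBX6* were *ST8SIA6* (r = 0.95), the Notch ligand *DLL3* (0.91) and *FGF4* (0.91). The nearest to *FOXC2* were *ALDH1A2* (0.91), which makes retinoic acid, *FOXL1* (0.91) and *FOXC1* (0.90). After *FOXC2*, *FOXC1* was nearest to *DPF3* (0.888) and *ALDH1A2* (0.885). *MEOX1* was nearest to *GPR183* (0.82), *LRIG3* (0.81) and *FOXL1* (0.81), and *TCF15* to *MYO7A* (0.91), *LINC01806* (0.89) and *DTX1* (0.89). Among the 3 nearest were *MGC15885* (0.88) and *KRT74* (0.86) for *MSGN1*, *ANGPTL1* (0.84) and *NR2F1* (0.82) for *MEOX2*, and *PYGO1* (0.90) and *KIF26B* (0.90) for *PDGFRA*. *ALDH1A2* itself read 14.4, 10238 and 20056 at P1 in r1, r2 and r3, and 1040 at P3 in r1.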

How the data were processed

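Bulk polyA-selected RNA of 47 H9 libraries was sequenced from 1 end. Per the submitters' processing notes, reads were handled with cutadapt 1.16, STAR 2.5.2b and RSEM 1.3.0 on GRCh38; the annotation release and strand setting are not given in the sources used here. The authors deposited RSEM expected counts per gene, of which 9.33% were not whole, because RSEM divides reads among genes they could come from. The TPM values deposited by the authors are these counts divided by effective length and scaled per library.

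Symbols and coordinates are those of GENCODE 29, which gave a symbol to 57447 of 58051 identifiers. Expected counts were rounded. To make normalized counts, each library's rounded counts were divided by its effective library size (the total times edgeR's TMM factor), scaled to a geometric mean of 1 over 47 libraries. A count of 3 was taken as the floor. The replicates of each group differed by more than sampling noise (lowest mean chi-square per gene 25.5), and floors cover counting error only. Each SE is the absolute log2 change divided by the square root of edgeR's quasi-likelihood F, so it includes variation between replicates.

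Groups were compared with edgeR 4.0.16 (limma 3.58.1, R 4.3.3; glmQLFit and glmQLFTest, filterByExpr, Benjamini-Hochberg adjustment), with the replicate number as a block. The study's design text makes each number 1 experiment with all time points. Deviations from group means had a mean correlation of 0.65 between P5 EPI and MES libraries of the same number and -0.32 for other numbers, and of 0.78 and -0.38 at P8. Between whole-culture time points the same-number mean was lower, from -0.01 for 36h and t0 to 0.31 for P8 and P5. Time points were fitted over 35 libraries, fractions over 12, and P5 MES against 36h over 47. DESeq2 1.42.0 was an alternative, and others are given in the closing section. The script was tested on simulated counts.

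The 10 genes and all lists were chosen with earlier results of these data known. All 10 genes are named. From other lists at most 4 called genes with the largest log2 change are named per comparison, besides genes that define a cell type and those named for their level. *HES7*, *MESP2*, *RIPPLY2*, *CXCR4*, *GATA6*, *PRRX1*, *COL2A1* and *PAX3* were picked from their lists for their levels after these had been seen. The genes most like a member are the 3 of highest Pearson's r of log2 CPM with a prior count of 2, of which some are not reported here.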

Additional observations from a re-analysis of the deposited data

Results flagged for a closer look

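In *PDGFRA* the MES fraction lay below the EPI fraction in 3 of 3 differentiations at P5 and above it in 3 of 3 at P8, so that the direction was opposite at the 2 passages. The ratios of MES to EPI were 0.802, 0.985 and 0.801 at P5 and 1.14, 1.52 and 1.31 at P8 in r1, r2 and r3. The difference of the log2 differences was 0.52 (SE 0.60), which was not called in the test of the difference itself (edgeR adjusted p = 0.92, higher at P8 in 3 of 3 differentiations). With groups of 3 libraries no single library was tested for lying apart.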

How the results depend on the processing

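The count of called members changed with the settings as follows. For 36h against t0 (2 members) it was 4 with DESeq2, 4 at an FDR under 5% and 4 without the 3 smallest whole-culture libraries, 0 with only the compared groups in the fit, and 0 to 4 when a differentiation was left out. For P1 against 36h (0 members) it was 3 with DESeq2, 2 at an FDR under 5%, 2 without the 3 smallest libraries, and 0 to 4 on leaving out a differentiation. For P3 against P1 it was 0 to 5 on leaving out a differentiation. For P5 against P3 it was 4 with DESeq2. For P9 and P10 against P8 it was 1 with DESeq2, 1 at an FDR under 5% and 0 to 1 on leaving out a differentiation. For P5 MES against 36h (3 members) it was 1 with only the compared groups in the fit and 0 to 4 on leaving out a differentiation. At an FDR under 5% *PDGFRA* was added there. In each of these comparisons the highest leave-one-out count came without r1, except P5 against P3, where it was 0 throughout. The cause of these shifts was not tested. Of 21750 tested genes, 2686 had an edgeR adjusted p under 0.05 for 36h against t0, before the fold and mean limits. There were 1845 such genes for P1 against 36h and 2257 for P9 and P10 against P8. For P5 MES against 36h there were 8888 of 21995.

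Without the replicate block the counts of called members were 3 for 36h against t0, where *PDGFRA* was added, 3 for P5 MES against 36h and 0 elsewhere; the block changed no other call of a member. Over all tested genes, dropping the block took the count for P3 against P1 from 238 to 129 and for P9 and P10 against P8 from 271 to 37. DESeq2 called 574 genes for P1 against 36h (edgeR 259), 530 for P3 against P1, 58 for P5 against P3 (edgeR 3), 155 for P8 against P5 (edgeR 2) and 740 for P9 and P10 against P8.

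Signs of some log2 changes that were not called with all differentiations turned in other settings. For P3 against P1, *FOXC2* was at 0.22 with DESeq2 and *PDGFRA* at 0.36 with only the compared groups in the fit. For P5 against P3, *MEOX2* was at 0.43 with only the compared groups in the fit. When each differentiation was left out in turn, *MSGN1* for P1 against 36h ran from -2.48 to 0.83. For P3 against P1, *MEOX1* ran from -2.19 to 5.56, *TCF15* from -3.02 to 2.42, *FOXC2* from -4.16 to 2.22 and *PDGFRA* from -1.09 to 0.67. *MEOX2* ran from -0.78 to 0.93 for P5 against P3, *FOXC1* from -0.10 to 0.89 for P8 against P5 and *PDGFRA* from -0.17 to 0.79 for P9 and P10 against P8. In MES against EPI at P8 *MEOX1* ran from -0.75 to 0.026 and *FOXC1* from -0.17 to 0.84. In the difference between passages *MEOX2* ran from -1.54 to 1.38 and *FOXC1* from -0.64 to 0.15, and in P5 MES against 36h *FOXC1* ran from -2.53 to 0.73. None of these was called in either direction, except that *FOXC2* and *TCF15* for P3 against P1 and *FOXC1* for P5 MES against 36h were called lower without r1.

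Each group has 2 or 3 libraries. Levels at or under 3 counts, as for *PAX1* and *UNCX* in 43 of 47 libraries each, cannot be told from 0 at this depth.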
